A study of Mus musculus with 4 samples.

Results

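Transcripts of 10 lysosomal protease genes, 9 cathepsins and legumain, were compared between TAK1 knockout and control retinal microglia. The genes were taken by symbol from a table of 15586 genes, and all 10 were present: Ctsa, Ctsb, Ctsc, Ctsd, Ctsf, Ctsh, Ctsl, Ctss, Ctsz and Lgmn. All 10 also passed the filter on low values, a mean of at least 1 FPKM (fragments counted for a gene, scaled to its transcript length and to the library's size) over the libraries, as did 7823 genes in all. The cells were microglia sorted by EYFP fluorescence from retinas of 2-month-old mice, with 200 cells in each library and 2 libraries in each group. TAK1_KO mice received intraperitoneal tamoxifen at 75 mg/kg for 5 days, and control mice received corn oil for 5 days. Both groups carried an inducible Cre recombinase in 1 copy of Cx3cr1 and floxed alleles of the TAK1 gene. TAK1 is the kinase, encoded by Map3k7, between innate immune receptors and the NF-kB and MAP kinase pathways. The genotype of the TAK1_KO samples is written Cx3cr1CreER/+;Tak3fl/fl in their labels and that of the control samples Cx3cr1CreER/+;Tak1fl/fl, so the groups are named by their titles. Only TAK1_KO mice received tamoxifen, so deletion and drug cannot be told apart. Cx3cr1 is also active in monocytes and other macrophages, in which Cre and the sort can act as well. The labels do not state whether a group's libraries came from separate animals, so p-values measure the spread between these libraries alone, and that spread may be technical.

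Cathepsins and legumain are proteases of lysosomes and late endosomes, where microglia break down engulfed synapses, photoreceptor debris and microbes. They are made as inactive precursors, tagged with mannose 6-phosphate, carried to the lysosome by receptors and activated there by acid and by each other. Most belong to the cysteine proteases (Ctsb, Ctsc, Ctsf, Ctsh, Ctsl, Ctss and Ctsz). Ctsd is an aspartic protease, Ctsa a serine carboxypeptidase, and Lgmn cuts after asparagine. Besides bulk breakdown they trim defined substrates, among them the invariant chain of MHC class II and endosomal Toll-like receptors.

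Promoter sequences are shown first for the most abundant member and for the member with the clearest separation of the groups. They are RefSeq sequences of build GRCm38.p6 and were matched for 8 of the 10 genes; Ctsb and Ctsh had no entry. The Ctss sequence is the 160 bases before its start (chr3:95526626-95526785, plus strand), and its closing capitals are the first 2 bases of the letters ACTTCCTC, which run on past the start. The Lgmn sequence is the 160 bases before the downstream of its 2 listed starts (chr12:102439093-102439252, minus strand), and capitals mark the letters CACGTG. Neither stretch overlaps an annotated exon of its gene.
Ctss: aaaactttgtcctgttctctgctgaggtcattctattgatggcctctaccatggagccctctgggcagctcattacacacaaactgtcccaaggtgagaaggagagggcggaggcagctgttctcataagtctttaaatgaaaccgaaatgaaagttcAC
Lgmn: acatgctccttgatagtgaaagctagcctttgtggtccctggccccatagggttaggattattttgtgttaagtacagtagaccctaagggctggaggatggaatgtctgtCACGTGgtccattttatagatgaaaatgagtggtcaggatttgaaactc

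Shorter stretches of 30 bases show 1 place with searched letters for each of 5 other genes, with the match in capitals; Ctsa and Ctsd each hold a second CACGTG that is not shown. CACGTG is the E-box read by MiT/TFE factors, the regulators of lysosomal genes, and TCACGTGA is its extended form; both read the same on either strand. GAGGAAGT, or ACTTCCTC on the other strand, is a form of the site of PU.1, a transcription factor of myeloid cells. Ctsd is at chr7:142387908-142387937 on the minus strand, Ctsf at chr19:4855074-4855103 on the plus strand, Ctsl at chr13:64370739-64370768 on the minus strand, Ctsa at chr2:164833749-164833778 on the plus strand and Ctsc at chr7:88277923-88277952 on the plus strand.
Ctsd: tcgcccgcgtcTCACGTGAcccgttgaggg
Ctsf: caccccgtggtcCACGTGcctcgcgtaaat
Ctsl: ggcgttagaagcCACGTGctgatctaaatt
Ctsa: tgagcaaactgTCACGTGAtgcagatgctc
Ctsc: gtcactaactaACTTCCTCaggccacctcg

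In windows of 250 bases before to 50 after a listed start, on both strands, CACGTG was present for 5 of the 8 genes with an entry, Ctsa, Ctsd, Ctsf, Ctsl and Lgmn, against 8.09% of all 27025 genes with an entry. TCACGTGA, which contains CACGTG, was present for Ctsa and Ctsd, against 1.12% of genes. For both genes the 160 bases before the start concerned lay wholly within annotated exons of the gene. The starts behind the CACGTG matches of Ctsa, Ctsl and Lgmn lay inside the gene's annotated span. The CLEAR palindrome, which adds a base on each side of TCACGTGA, was present for 0 of the 8, against 0.37% of genes. GAGGAAGT was present for Ctsc and Ctss, against 3.69% of genes. Of the genes holding CACGTG, Ctsd and Lgmn stood above both controls in both knockouts, whereas Ctsa, Ctsf and Ctsl overlapped. The letters thus did not divide the genes by the values given below, and a match of letters is not evidence of a bound site.

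The libraries are described briefly before the results. FPKM summed to 823229 and 812009 in the TAK1_KO libraries and to 969700 and 863652 in the control libraries; the number of reads behind them is unknown. At least 1 FPKM was reached by 6055 and 5628 genes in the TAK1_KO libraries and by 4481 and 3777 genes in the control libraries. Of the 7823 genes tested, 2514 (32.1%) had over 90% of their FPKM in 1 library, which 0 of the 10 proteases did. Map3k7 read 0.02 and 0.08 FPKM in the knockouts and 0.03 and 0 FPKM in the controls, too low in both groups to check the labels. All 12 microglia markers listed were detected, 7 with both knockouts above both controls and 1 with both below. Of all genes tested, 27.8% had both knockouts above and 11.4% had both below. P2ry12, a purinergic receptor gene of microglia, read 1794 and 830 FPKM in the knockouts and 569 and 790 FPKM in the controls. Cx3cr1, the fractalkine receptor gene that carries the Cre, read 88.2 and 73 FPKM in the knockouts and 101 and 88.9 FPKM in the controls.

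Transcripts of other cells differed between the groups too. The counts of markers above and below stand beside 27.8% and 11.4% of all tested genes. Of 7 monocyte markers in the table, summing to 57.2 and 8.74 FPKM in knockouts and 465 and 445 FPKM in controls, 6 were tested, 1 below both controls (Ccr2) and 0 above. Ccr2, a chemokine receptor gene of monocytes, read 1.81 and 0.59 FPKM in the knockouts and 316 and 151 FPKM in the controls. For 9 perivascular macrophage markers the sums were 190 and 840 FPKM in knockouts and 2223 and 1752 FPKM in controls; of 8 tested, 2 were below and 0 above. Ms4a7, at 189 and 155 FPKM in the knockouts and 1614 and 1547 FPKM in the controls, made up most of the sum in knockout 1 and in both controls, but not in knockout 2. In that library Pf4 (303 FPKM), F13a1 (119 FPKM) and Mrc1 (97.2 FPKM) were also high. For these genes knockout 1 read 0.51, 0.03 and 0.05 FPKM. Control 1 read 367, 0.18 and 97.1 FPKM, and control 2 read 1.04, 0.03 and 5.32 FPKM. Cd163 stayed under 1 FPKM everywhere. For 4 dendritic cell markers the sums were 1.25 and 2.14 FPKM in knockouts and 503 and 889 FPKM in controls. Cd209a, the 1 of them tested, lay below both controls and carried nearly all of it, and Zbtb46 and Xcr1 stayed under 1 FPKM. For 12 rod markers the sums were 4760 and 5377 FPKM in knockouts and 1254 and 1658 FPKM in controls, 10 of them above and 0 below. For 8 Müller glia and astrocyte markers the sums were 10210 and 2275 FPKM in knockouts and 5083 and 5371 FPKM in controls. Of 7 tested, 1 was above and 0 below. Apoe made up most of each sum, at 9190 and 1647 FPKM in the knockouts and 4904 and 4968 FPKM in the controls. Of retinal pigment epithelium markers, Rpe65 alone passed 1 FPKM, in control 1 (9.39 FPKM); the 1 neutrophil marker in the table, Mmp8, read at most 0.03 FPKM. Of 4 endothelial markers, Flt1 alone passed 1 FPKM, at 15.9 and 8.05 FPKM in the knockouts and 0 and 0.05 FPKM in the controls. Macrophages and monocytes also express cathepsins. The part of these other cells in the protease values was not tested, and in bulk libraries fewer cells of a type and less RNA per cell cannot be told apart.

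As a family the 10 proteases held more of the transcript pool in both knockouts than in either control. Their FPKM summed to 43450 and 28316 in the knockouts and to 24920 and 24745 in the controls. As a share of all FPKM they made up 5.28% and 3.49% in TAK1_KO libraries and 2.57% and 2.87% in control libraries, a mean difference of 1.665 percentage points. Ctss was the larger part of this share, at 3.92% and 2.50% in the knockouts and 1.86% and 2.30% in the controls. The 9 other proteases held 1.36% and 0.98% in the knockouts and 0.71% and 0.56% in the controls. For the 10 proteases the groups did not overlap, but the size depended on which knockout was used. The difference was 0.770 points without knockout 1 and 2.56 points without knockout 2. An exact two-sided permutation test gave p = 0.333, which is the smallest that 2 libraries against 2 can give.

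**Figure D1:**
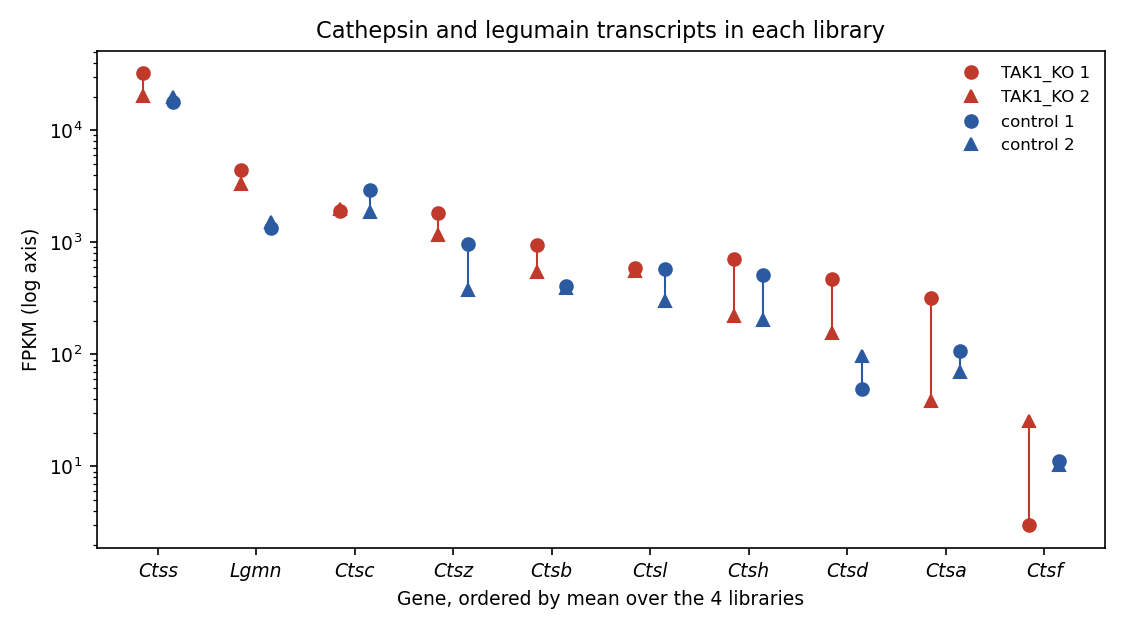
FPKM of each protease gene in each of the 4 libraries, on a log axis, with genes ordered by their mean and TAK1_KO libraries (red) left of control libraries (blue); lines join the 2 libraries of a group. Ctss lies far above the rest, the groups of Lgmn are well apart, and the knockout libraries of Ctsa and Ctsf are far from each other.

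None of the 10 passed limma's moderated test on log2(FPKM + 1), adjusted over all 7823 genes (smallest adjusted p = 0.559, for Lgmn). The same fit called 0% of all tested genes, so the absence of a call is no property of the family. At an unadjusted p under 0.05, 1 of the 10 stood higher (Lgmn) and 0 lower, against 6.07% higher and 1.62% lower among all genes tested. By position, 5 of 10 had both knockouts above both controls (Ctsb, Ctsd, Ctss, Ctsz and Lgmn), 0 had both below, and 5 overlapped. Over the whole set of tested genes, 27.8% had both knockouts above and 11.4% had both below. With 3 libraries separation is more common: 8 of the 10 proteases lay above without control 1 and 8 without knockout 2, against 45.3% and 45.6% of all genes tested there. Without control 2 the count above was 5 and without knockout 1 it was 6, against 42.1% and 43.3%. In the settings without control 2, knockout 1 or knockout 2, 1 protease lay below, against 27.3%, 21.3% and 23.5% of all genes tested there.

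Abundant genes behaved differently from the table as a whole, and 9 of the 10 proteases, all but Ctsf, averaged at least 100 FPKM. Of 1177 genes at that level, 19% lay above both controls and 26.5% below, whereas 5 of the 9 proteases lay above and 0 below. The median log2 fold change was 0.45 over the 10 proteases, 0.94 over all tested genes and -0.11 over these 1177 abundant genes. The family median therefore stood 0.49 below that of all genes and 0.56 above that of the abundant genes.

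Lgmn encodes legumain, which cuts after asparagine residues, matures several cathepsins and cleaves endosomal Toll-like receptors. The gene lies on chromosome 12 (102394082 to 102439728, minus strand). It read 4459 and 3285 FPKM in the knockouts and 1350 and 1527 FPKM in the controls. Both knockouts were well above both controls, and each knockout was 2.15 to 3.30 times each control. The log2 fold change was 1.41 (SE 0.28, 95% interval 0.73 to 2.10; limma adjusted p = 0.559). Among all genes of each library Lgmn ranked 17 and 24 in the knockouts and 105 and 83 in the controls. It was the 1 protease whose knockouts lay above the controls under each scaling that was tried.

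Ctss encodes cathepsin S, a cysteine protease that stays active at neutral pH, is characteristic of microglia and other antigen-presenting cells, and makes the last cut of the invariant chain. It lies on chromosome 3 (95526786 to 95556405, plus strand). Its level was 32238 and 20338 FPKM in the knockouts and 18010 and 19906 FPKM in the controls, which put it at rank 3 of all genes in both knockouts and at rank 4 in both controls. Knockout 1 stood apart, while knockout 2 was only 1.02 times the higher control. The log2 fold change was 0.44 (SE 0.21, 95% interval -0.08 to 0.95; limma adjusted p = 0.698). After median ratio scaling it was -0.45.

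Among the other cysteine cathepsins, Ctsz and Ctsb also lay above the controls. Ctsz, cathepsin X, a carboxypeptidase (chromosome 2, 174427494 to 174439039, minus strand), read 1825 and 1159 FPKM in the knockouts and 975 and 378 FPKM in the controls. The lower knockout was 1.19 times the higher control, and the controls themselves differed 2.58-fold. Ctsb, cathepsin B, an endopeptidase, lies on chromosome 14 (63122462 to 63145923, plus strand). It read 951 and 549 FPKM in the knockouts and 404 and 389 FPKM in the controls. Its controls were close together, and the lower knockout was 1.36 times the higher control. The log2 fold changes were 1.26 for Ctsz (SE 0.57) and 0.86 for Ctsb (SE 0.53), with limma adjusted p = 0.693 and 0.698. After median ratio scaling Ctsb stood at -0.02.

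Ctsc, Ctsl, Ctsh and Ctsf overlapped between the groups. Ctsc, cathepsin C, a dipeptidyl peptidase that activates granule serine proteases (chromosome 7, 88278024 to 88315861, plus strand), read 1888 and 1988 FPKM in the knockouts and 2924 and 1868 FPKM in the controls. Both knockouts lay within the range of the controls, at a log2 fold change of -0.27 (SE 0.32, 95% interval -1.05 to 0.51; limma adjusted p = 0.700). Ctsl, cathepsin L, a broad endopeptidase (chromosome 13, 64361890 to 64370772, minus strand), read 589 and 556 FPKM in the knockouts and 574 and 298 FPKM in the controls. Both knockouts resembled control 1, and control 2 was the low library. Ctsh, cathepsin H, an aminopeptidase (chromosome 9, 90054267 to 90076095, plus strand), read 707 and 221 FPKM in the knockouts and 516 and 203 FPKM in the controls. Within each group its libraries differed more than the groups did, 3.19-fold in knockouts and 2.54-fold in controls. Ctsf, cathepsin F, the least abundant member (chromosome 19, 4855165 to 4860918, plus strand), read 2.99 and 25.4 FPKM in the knockouts and 11.1 and 10.3 FPKM in the controls. The knockouts thus lay on either side of the controls.

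Ctsd, the aspartic protease cathepsin D, which degrades long-lived proteins and whose loss causes neuronal storage disease (chromosome 7, 142375910 to 142387827, minus strand), had the largest log2 fold change of the 10. It read 470 and 156 FPKM in the knockouts and 49.3 and 96.7 FPKM in the controls. All knockout values were above all control values, but by anything between 1.62-fold and 9.52-fold. The log2 fold change of 1.96 had an SE of 0.96 and a 95% interval of -0.38 to 4.29 (limma adjusted p = 0.698). Ctsa, the serine carboxypeptidase that also protects beta-galactosidase and neuraminidase 1 (chromosome 2, 164832872 to 164841032, plus strand), read 321 and 38.8 FPKM in the knockouts and 107 and 69.3 FPKM in the controls. Knockout 1 was the highest library and knockout 2 the lowest, 8.27-fold apart, and the log2 fold change of 0.38 had a 95% interval of -2.69 to 3.45.

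**Figure D2:**
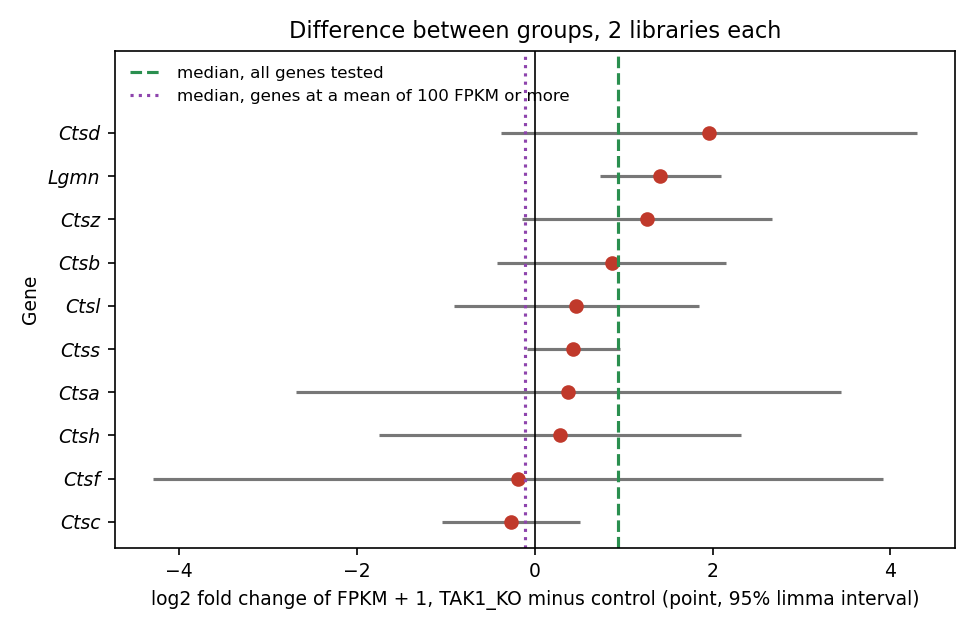
Log2 fold change of FPKM + 1, TAK1_KO minus control, for each protease gene (points) with limma's 95% intervals (lines); dashed and dotted lines give the medians over all tested genes (0.94) and over genes averaging at least 100 FPKM (-0.11). The interval of Lgmn, 0.73 to 2.10, is the 1 interval that does not reach 0, and those of Ctsa and Ctsf are the widest.

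The libraries of a group also differed from each other in a shared way. In the knockouts, 8 of 10 proteases were higher in knockout 1 than in knockout 2, with a median log2 difference of 0.66, whereas that of the 1177 abundant genes was -0.08. In the controls, 7 of 10 were higher in control 1 than in control 2, with a median log2 difference of 0.36 against 0.02 for the abundant genes. Set library against library, 8 and 9 of the 10 were higher in knockout 1 than in control 1 and control 2, and 6 and 9 of the 10 were higher in knockout 2 than in control 1 and control 2. Without knockout 2 the family median was 1.19 and without control 2 it was 0.29, so the size of the family difference depended on single libraries.

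FPKM is scaled to length, so levels can be set against each other within a library. Ctss was the highest and Ctsf the lowest of the 10 in every library. By mean the order was Ctss, Lgmn, Ctsc, Ctsz, Ctsb, Ctsl, Ctsh, Ctsd, Ctsa and Ctsf. Over the 4 libraries the ranges of neighbours in this order overlapped except between Ctss and Lgmn, between Ctsc and Ctsz, and between Ctsa and Ctsf. Lgmn and Ctsc changed places between the groups. The ratio of Lgmn to Ctsc was 2.36 and 1.65 in the knockouts and 0.462 and 0.817 in the controls. Such a ratio does not change when a library is multiplied by 1 factor, though quantile normalization can change it.

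The make-up of the family differed accordingly. Ctss held 74.2% and 71.8% of the family's FPKM in the knockouts and 72.3% and 80.4% in the controls, so its share overlapped between groups. Of the FPKM of the 9 other genes, Lgmn held 39.8% and 41.2% in the knockouts and 19.5% and 31.6% in the controls. The share of Ctsc was 16.8% and 24.9% in the knockouts and 42.3% and 38.6% in the controls. Lgmn and Ctsc together held most of that sum in each library, and neither gene's share overlapped between groups. The share of Ctsz, at 16.3% and 14.5% in the knockouts and 14.1% and 7.80% in the controls, did not overlap either. Shares of 1 sum are tied to each other, and the FPKM of Ctsc itself overlapped between groups. Relative to Ctss, Lgmn stood at 0.138 and 0.162 in the knockouts and at 0.0750 and 0.0767 in the controls. Lgmn thus stood higher relative to Ctss in both knockouts.

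**Figure D3:**
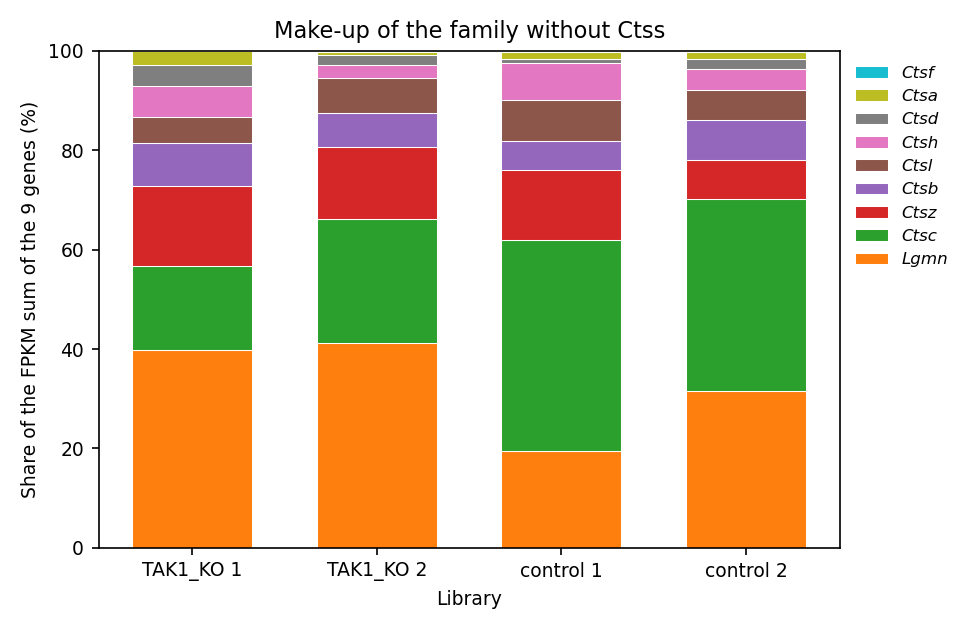
Share of each gene in the FPKM sum of the 9 proteases other than Ctss, in percent, in TAK1_KO libraries (left) and control libraries (right). Lgmn is the largest part in both knockouts (39.8% and 41.2%) and Ctsc the largest in both controls (42.3% and 38.6%).

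The scaling of the libraries set the sign of several members. Rescaling to a common sum gave a family median of 0.61 and quantile normalization 0.59, and both placed Ctsl among the genes above the controls, 6 of 10, against 31.1% of all tested genes after rescaling and 19.9% after quantile normalization. Median ratio scaling shifted abundant genes down as a whole, to a median of -0.99, and the family median became -0.43, with Lgmn above and Ctsc and Ctsl below the controls, against 6.37% of abundant genes above and 52.8% below. Relative to the abundant genes the family stood 0.56 higher after median ratio scaling, 0.56 higher after rescaling to a common sum and 0.59 higher after quantile normalization. The sign of Ctss, Ctsb, Ctsl, Ctsh and Ctsa therefore rests on the scaling, while Lgmn, Ctsd and Ctsz were positive under all 4.

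**Figure D4:**
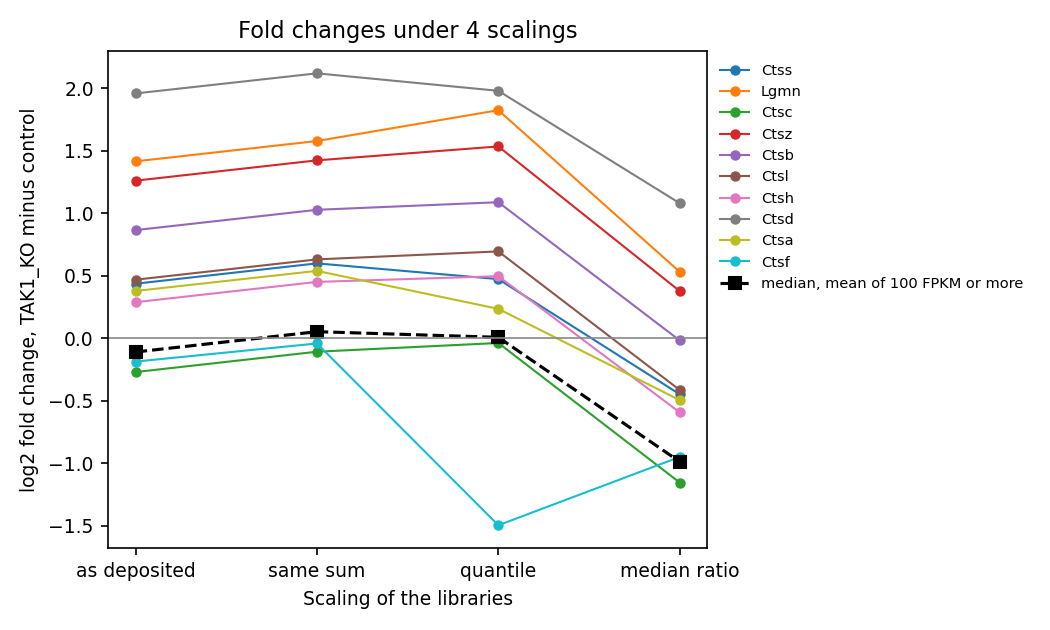
Log2 fold change of each protease gene, TAK1_KO minus control, for FPKM as deposited and after 3 other scalings (lines join values of 1 gene); the dashed black line is the median of genes averaging at least 100 FPKM. Most genes keep about the same distance to that median under median ratio scaling, where the family median is -0.43 and that of abundant genes -0.99; Ctsf drops furthest under quantile normalization.

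The other genes of the pathway were counted from prepared lists, and 0 passed limma's test after adjustment in either direction. Of 5 further cathepsins listed, Ctse and Ctso were in the table. Ctse, an aspartic endosomal protease, read 198 and 55.6 FPKM in the knockouts and 43.8 and 4.22 FPKM in the controls, above both controls (limma adjusted p = 0.698). Ctso read 26.1 and 11.2 FPKM in the knockouts and 0.16 and 208 FPKM in the controls. Of 5 other lysosomal peptidases, 2 lay above the controls and 0 below, against 27.8% and 11.4% of all tested genes. Dpp7, a dipeptidyl peptidase, read 29.4 and 46.8 FPKM in the knockouts and 0.37 and 0.04 FPKM in the controls (limma adjusted p = 0.562). Cpq read 32 and 0.61 FPKM in the knockouts and 0.07 and 0.14 FPKM in the controls, so knockout 1 alone was high. Scpep1 read 43.6 and 59.1 FPKM in the knockouts and 0.19 and 120 FPKM in the controls, which overlapped.

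In FPKM as deposited, the inhibitors tested did not separate by group. Of 11 cystatins and stefins listed, 3 were in the table and 2 were tested. Cst3, cystatin C, the main secreted inhibitor of cysteine cathepsins, read 37408 and 26937 FPKM in the knockouts and 28166 and 21980 FPKM in the controls, which overlapped. The log2 fold change of Cst3 was 0.35 as deposited and 0.51 after rescaling to a common sum. It was 0.39 after quantile normalization and -0.53 after median ratio scaling. There were 1.16 and 1.32 FPKM of Cst3 for each FPKM of Ctss in the knockouts and 1.56 and 1.10 in the controls. Cstb, stefin B, a cytosolic inhibitor, read 781 and 1132 FPKM in the knockouts and 861 and 218 FPKM in the controls, and Cst7 stayed under 1 FPKM in every library.

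Of 12 genes that sort proteases to the lysosome, 9 were tested, 4 above the controls and 0 below. The shares of all tested genes were 27.8% above and 11.4% below. M6pr, a mannose 6-phosphate receptor, read 137 and 166 FPKM in the knockouts and 0.18 and 8.72 FPKM in the controls (limma adjusted p = 0.559). Gnptab, which encodes the enzyme that makes the mannose 6-phosphate tag, read 11 and 17.6 FPKM in the knockouts and 0 and 0.05 FPKM in the controls. Gga1, a sorting adaptor, read 4.68 and 2.42 FPKM in the knockouts and 0.02 and 0 FPKM in the controls. Of 3 partners and activators, Psap, the precursor of the saposins, read 267 and 101 FPKM in the knockouts and 13.4 and 70 FPKM in the controls. Glb1, the beta-galactosidase that Ctsa protects, read 0.11 and 33.7 FPKM in the knockouts and 4.91 and 0.03 FPKM in the controls, and Neu1 stayed under 1 FPKM.

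Of the 4 MiT/TFE factor genes, 1 lay below the controls and 0 above, against 11.4% and 27.8% of all tested genes. Tfe3 read 0.02 and 0.02 FPKM in the knockouts and 7.19 and 4.88 FPKM in the controls (limma adjusted p = 0.698). Tfec read 0.04 and 0.08 FPKM in the knockouts and 0 and 121 FPKM in the controls, and Mitf read 0.03 and 0.82 FPKM in the knockouts and 6.91 and 0.05 FPKM in the controls. Tfec and Mitf each had their high value in 1 control library, and such values do not show that a gene was silent elsewhere.

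Genes of antigen presentation by MHC class II lay the other way. All 5 listed genes, Cd74, H2-Aa, H2-Ab1, H2-Eb1 and Ifi30, had both knockouts below both controls. So did 11.4% of all tested genes and 26.5% of those averaging at least 100 FPKM. Cd74, the invariant chain that Ctss trims, read 6244 and 181 FPKM in the knockouts and 12697 and 17767 FPKM in the controls, at a log2 fold change of -3.82 (SE 1.49; limma adjusted p = 0.636). H2-Ab1 and H2-Aa, the chains of the class II molecule I-A, had log2 fold changes of -3.48 and -3.77, and H2-Eb1, a chain of I-E, read 236 and 2.28 FPKM in the knockouts and 553 and 745 FPKM in the controls. Ctss stood at 5.16 and 112 FPKM for each FPKM of Cd74 in the knockouts and at 1.42 and 1.12 in the controls. Alongside these genes, the summed dendritic cell markers stood at 1.25 and 2.14 FPKM in the knockouts and 503 and 889 FPKM in the controls, and the summed monocyte markers at 57.2 and 8.74 FPKM in the knockouts and 465 and 445 FPKM in the controls. Their part in the class II values was not tested. Of 5 genes for endosomal receptors that these proteases process, 3 were tested, 2 above and 0 below. The shares of all tested genes were 27.8% and 11.4%. Tlr7 read 65.7 and 94.8 FPKM in the knockouts and 42.4 and 1.57 FPKM in the controls, and Unc93b1, which carries these receptors to endosomes, read 57.9 and 35.7 FPKM in the knockouts and 8.62 and 35.5 FPKM in the controls. Tlr13 read 4.61 and 146 FPKM in the knockouts and 2.06 and 87 FPKM in the controls. Of 4 listed serine proteases that Ctsc activates, 0 were in the table.

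The genes averaging at least 100 FPKM whose centred log2 profile over the 4 libraries was nearest to the mean profile of the 10 proteases were Sft2d1, Atp6v1d and Cd9, at root mean square distances of 0.039, 0.075 and 0.075 log2 units. Sft2d1, a vesicle transport gene, read 1589 and 1075 FPKM in the knockouts and 938 and 765 FPKM in the controls. Atp6v1d, a subunit of the proton pump that acidifies lysosomes, read 403 and 241 FPKM in the knockouts and 248 and 181 FPKM in the controls. Cd9, a tetraspanin, read 2837 and 2075 FPKM in the knockouts and 1615 and 1282 FPKM in the controls. With 4 libraries many genes can share such a profile.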

How the data were processed

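The authors deposited 1 table of FPKM, rounded to 2 decimals, for the 4 libraries, with column names that match the sample titles. Per the labels' protocols, 200 cells per library were sorted, and SMART-SeqII cDNA was amplified by PCR and made into libraries with a transposon. Per the submitters' processing notes the build is mm10. The aligner, the quantifier and any use of strand: not given in the sources used here. Depth is unknown: genes between 0.1 and 1 FPKM in both libraries of a pair gave no common step (at most 8.97% of ratios in 1 bin), so no counting interval is given. Ctsa, Ctsb and Ctsz overlap the genes Pltp, Fdft1 and Nelfcd, which read at most 6.21, 40.7 and 37.2 FPKM; reads in shared stretches cannot be told apart.

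Genes averaging at least 1 FPKM were tested on log2(FPKM + 1), TAK1_KO minus control, with limma 3.58.1 in R 4.3.3 (trended variance, 2 residual and 3.99 prior degrees of freedom; Benjamini-Hochberg adjustment over 7823 genes; threshold 0.05). Fold changes on this scale understate those of low genes. The code was tested on simulated data. Figures were made with matplotlib 3.10.9. Gene positions, promoters and starts are from RefSeq (GRCm38.p6, the coordinates of mm10), exons from GENCODE. Members, lists, tests and alternatives were chosen with earlier results of these data known. Named were all members, up to 3 genes per pathway list with the smallest p, the most abundant marker per cell type, and the 3 nearest profiles; Map3k7, P2ry12, Cx3cr1, the overlapping genes, H2-Eb1, Ifi30, Cst7, Neu1, Pf4, F13a1, Mrc1 and markers near 0 were named besides; some values are not reported here. Alternatives were other pseudocounts, filters, scalings and variance settings, a replicate block and each library left out.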

Additional observations from a re-analysis of the deposited data

How the results depend on the processing

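Over the 12 alternatives that kept all libraries, the 10 proteases kept their direction and their side of the threshold in 112 of 119 cases, and 2 more passed only with the block. The 5 reversals all came with median ratio scaling: Ctsa -0.50, Ctsb -0.018, Ctsh -0.59, Ctsl -0.41 and Ctss -0.45. There the family median was -0.43, with 1 protease above and 2 below the controls. Other genes that reversed there were Ctso (-0.57), Cst3 (-0.53), Sft2d1 (-0.26), Atp6v1d (-0.33) and Cd9 (-0.13); Ctso also reversed at a pseudocount of 5 FPKM (-0.56) and after quantile normalization (-0.74), and Tlr13 reversed after quantile normalization (-0.19). Without 1 library in turn, the genes called over the whole table ranged from 0 to 1306 higher and from 0 to 5 lower, none of them a protease; 697 higher and 4 lower were called without knockout 1, 1306 and 5 without knockout 2, and 0 without either control. The lone knockout is assumed there to vary like the controls. Proteases above the controls ranged from 5 to 8 (8 without control 1 or knockout 2) and those below from 0 to 1, where 42.1% to 45.6% of all tested genes lay above and 21.3% to 27.3% below, and the family median from 0.29 to 1.19. Ranges that crossed 0 were Ctsa -1.13 to 1.89, Ctsc -0.59 to 0.052, Ctsf -1.55 to 1.18, Ctsh -0.55 to 1.12, Ctsl -0.0045 to 0.94, Ctso -3.52 to 3.97, Glb1 -1.15 to 3.82, Scpep1 -1.22 to 5.44, Tlr13 -1.62 to 3.23 and Apoe -1.58 to 0.90. At an adjusted p under 0.1 the main test called 0 genes, and the cause of these shifts was not tested.

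The libraries share replicate numbers, but nothing says that they were paired, and the deviations of same-numbered libraries correlated at 0.017. With the replicate number as a block, 15 genes were called higher and 20 lower, among them Ctss (adjusted p = 0.00998), Lgmn (0.0158), Cst3 (0.0276), Cd74 (2.858e-43), H2-Ab1 (1.385e-09), H2-Aa (9.903e-05), Ms4a7 (0.0028), Cd209a (0.000735) and the rod gene Pdc (0.0358). That fit has 1 residual degree of freedom and an infinite prior, which treats the variance as known, so these p-values are not read as stronger evidence.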
